A study of Mus musculus with 6 samples.

Results

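The mRNA levels of 10 genes of the AP-1 and immediate early group were read out in mouse bladder tumor organoids, which are 3-dimensional cultures grown from tumor cells. The genes were chosen by symbol, 10 of the 51912 gene IDs in the deposited table, and each matched a single ID. They were the FOS family genes Fos, Fosb, Fosl1 and Fosl2, the JUN family genes Jun, Junb and Jund, and Egr1, Ier2 and Dusp1. Bulk RNA of organoids from C57BL/6 mice was sequenced in 6 libraries, 3 from cultures given SRT1720, a small molecule described as a SIRT1 activator, and 3 from cultures given vehicle. Both groups shared strain and tissue in the labels. The sources used here do not give the dose, the length of exposure, how the tumors arose or the age and sex of the mice. No label ties a replicate to a separate animal or culture, so a p-value here measures the spread between these libraries, which may be technical.

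AP-1 is a transcription factor built from a FOS protein paired with a JUN protein, or from JUN proteins paired with each other, through leucine zippers. FOS proteins cannot pair among themselves. Fos, Fosb, Jun, Junb, Egr1, Ier2 and Dusp1 belong to the immediate early genes, which growth factors, stress and tissue handling switch on within minutes without new protein synthesis, through MAP kinases acting on factors such as SRF with its ELK partners and CREB. Fosl1 and Fosl2 usually follow later, and Jund is made more steadily. SIRT1 has been reported to deacetylate FOS and JUN proteins and to lower AP-1 activity. The values here are mRNA levels, which show neither AP-1 protein nor its activity.

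Libraries resembled each other across the treatment groups. Over all genes, the deviations from the group mean in SRT1720 1 correlated with those in Vehicle 2 (r = 0.72), those in SRT1720 2 with Vehicle 1 (r = 0.68) and those in SRT1720 3 with Vehicle 3 (r = 0.79), across genes, which are not independent replicates. Basal keratin Krt5 was at 16.4 and 9.61 TPM in SRT1720 1 and Vehicle 2 and between 425 and 1120 TPM in the other 4 libraries. The 10 luminal markers summed to 347 and 227 TPM in those same libraries and to between 77.2 and 114 TPM elsewhere. Most of that sum in SRT1720 1 and Vehicle 2 was the keratins Krt18 and Krt8, and of 5 tested luminal markers 1, Krt18, had its highest values in exactly this pair of libraries. Upk1b, a uroplakin gene, was lowest in SRT1720 1 and Vehicle 2, at 1.47 and 0.660 TPM against 2.72 to 12.1 TPM, and Upk3a, another uroplakin gene, was at 0 in every library. No fibroblast, endothelial or smooth muscle marker (0 of 10, 0 of 8 and 0 of 6) and 2 of 10 leukocyte markers, Cd68 and Lyz2, reached a mean of 1 TPM. Lyz2 was at 10.5 and 14.3 TPM in SRT1720 2 and Vehicle 1 and at 0 in the other libraries, and Cd68 averaged 1.02 ± 0.29 TPM (SRT1720) against 2.16 ± 0.85 TPM (Vehicle), without overlap. In bulk RNA, fewer cells of a type and less RNA per cell cannot be told apart. The depth recovered from the values was 18248722 to 22837770 reads per library.

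None of the 9 members that could be tested passed limma's test of SRT1720 against Vehicle, adjusted by Benjamini-Hochberg over the 9287 genes whose mean reached 1 TPM. TPM is the deposited level, scaled for gene length and library depth. The same test called 0% of those 9287 genes. At an unadjusted p under 0.05 there was 1 of 9, Fosl2, against 12.4% of all genes (5.62% without SRT1720 2). By direction, 0 of 9 were higher, against 7.86%, and 1 of 9 was lower, against 4.55%. Of the 9, 5 had log2 differences (SRT1720 minus Vehicle, on log2(TPM + 1)) above 0 and 4 below, with a median of 0.05 beside 0.04 over all genes tested. This median over the members became −0.38 without SRT1720 1, −0.05 without Vehicle 1, −0.32 without both SRT1720 1 and Vehicle 2 and −0.0013 with median-of-ratios scaling, and was 0.28 without SRT1720 2 and 0.25 without SRT1720 3. The tenth member, Fosb, stayed under the filter on low values.

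**Figure D1:**
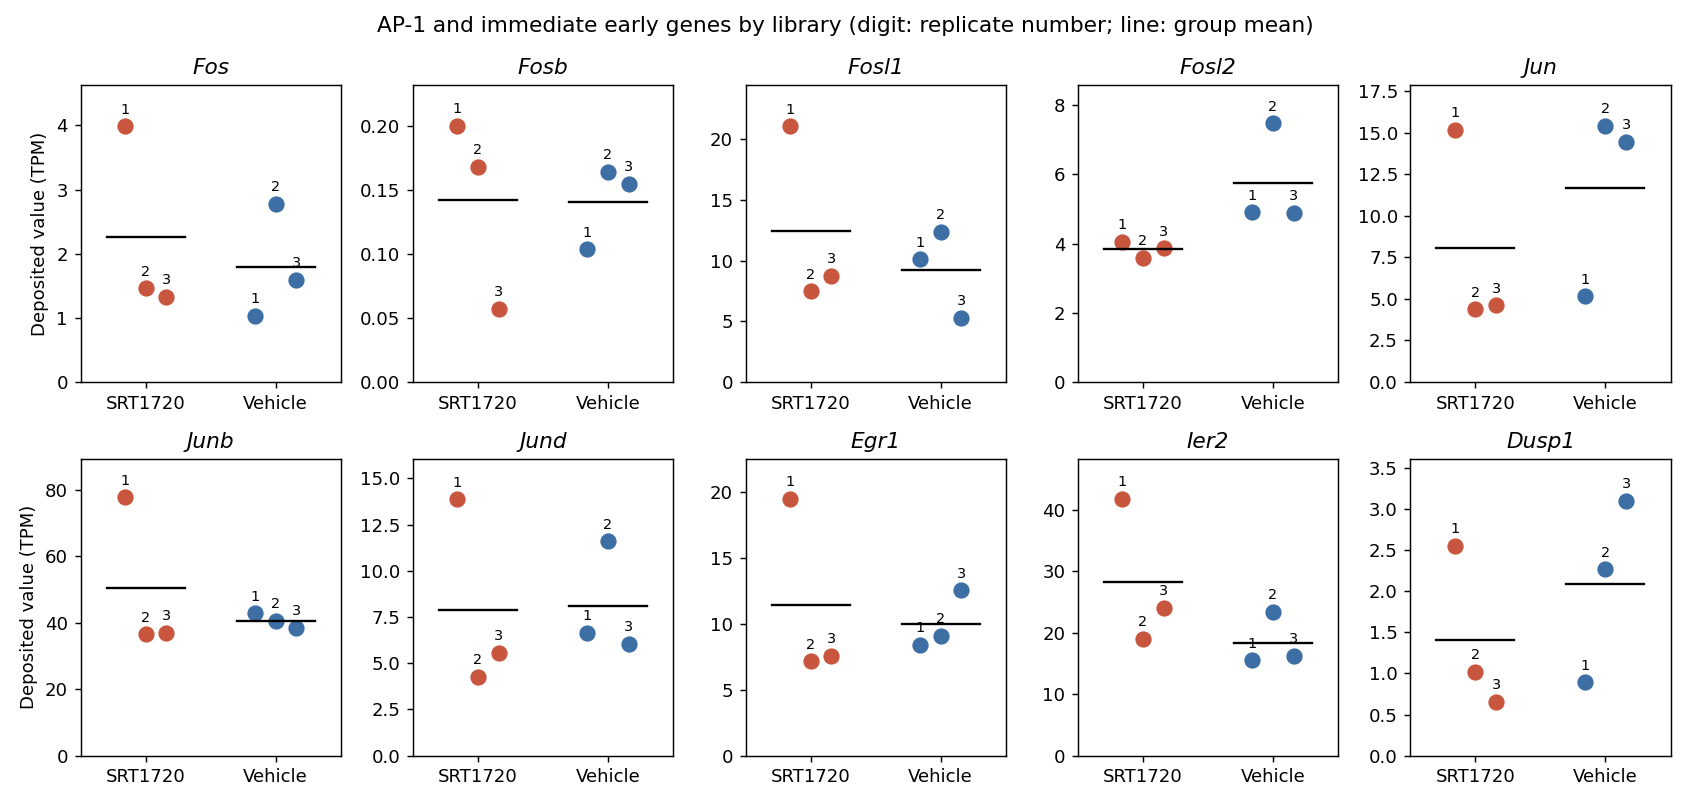
Deposited level (TPM, linear axes from 0) of each of the 10 genes in the 3 SRT1720 and 3 Vehicle libraries. Points are libraries with their replicate number, and lines are group means. SRT1720 1 holds the highest value in 7 of the 10 genes, and only in Fosl2 do the groups not overlap.

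SRT1720 1 set most of what the group means show. It held the highest of the 6 values in 7 of the 10 genes, Fos, Fosb, Fosl1, Junb, Jund, Egr1 and Ier2, whereas Fosl2 and Jun were highest in Vehicle 2 and Dusp1 in Vehicle 3. SRT1720 2 was lowest in 5 genes. The summed level of the 10 genes was 200 TPM in SRT1720 1, 85.0 and 93.4 TPM in SRT1720 2 and 3, and 95.7, 125 and 103 TPM in Vehicle 1, 2 and 3. In 4 of the 9 tested members, or 44.4%, the highest and second highest values were those of SRT1720 1 and Vehicle 2, against 16.2% of all genes tested. That count was chosen after the values had been seen, and the part that the low Krt5 of these libraries has in it was not tested.

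The within-group standard deviation of 8 of the 9 tested members lay between the 80.7th and the 95.9th percentile of all genes tested. It was 0.85 on the log2 scale for Jun, the widest, and 0.22 for Fosl2, at the 42.3rd percentile, beside a median of 0.25 over all genes. The intervals of the differences below are wide for that reason.

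Among the FOS genes, Fos itself, the classical partner of JUN, was expressed at a low level. The SRT1720 libraries 1, 2 and 3 held 3.99, 1.46 and 1.32 TPM of Fos and the Vehicle libraries 1.03, 2.78 and 1.59 TPM, from between 252 and 895 reads. One library of each group, SRT1720 1 and Vehicle 2, was high, and the groups overlapped. The log2 difference of Fos was 0.17 (SE 0.36, 95% interval −0.68 to 1.03, limma adjusted p = 0.897), and it was −0.18 without SRT1720 1. On GRCm38 the gene (ENSMUSG00000021250) lies on chromosome 12 from 85473890 to 85477273 on the plus strand.

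Fosb, a close relative of Fos that is also induced in bursts, was close to absent in these cultures. Its values were 0.2004, 0.169 and 0.0571 TPM with the compound and 0.104, 0.164 and 0.155 TPM with vehicle, from 52 to 179 reads per library. The group means, 0.142 ± 0.075 and 0.141 ± 0.033 TPM (SD, n = 3), lay within each other's spread (exact two-sided permutation p = 1).

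Fosl1 encodes FRA-1, a FOS protein without the strong activation domain of FOS and frequent in carcinoma cells. On the deposited scale it was the most abundant FOS family mRNA in every library. SRT1720 1, 2 and 3 held 21.1, 7.46 and 8.73 TPM, and Vehicle 1, 2 and 3 held 10.1, 12.4 and 5.27 TPM. The highest value, in SRT1720 1, stood apart from its own group, and the lowest was in Vehicle 3. The log2 difference was 0.32 (SE 0.44, interval −0.73 to 1.37, adjusted p = 0.826) and −0.11 without SRT1720 1. The far end of Fosl1 overlaps Ccdc85b on the opposite strand, whose level was 16.4 to 35.9 TPM, and the sources used here do not say whether reads were counted by strand.

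Fosl2, which encodes FRA-2, was the one member whose groups did not overlap. Its level was 4.06, 3.58 and 3.86 TPM under SRT1720 and 4.90, 7.47 and 4.89 TPM under vehicle, from 2367 to 4128 reads. All 3 SRT1720 values were close together and below the lowest Vehicle value, while Vehicle 2 was well above the other Vehicle libraries. Among all genes tested, 7.75% had every SRT1720 value below every Vehicle value and 19.9% did not overlap in either direction, so 1 such gene among 9 is near the background. The log2 difference of Fosl2 was −0.46 (SE 0.19, interval −0.91 to −0.02), with an unadjusted limma p of 0.0435 and an adjusted p of 0.389. The exact permutation p was 0.1, the smallest that 3 libraries against 3 can give. In all 14 other settings the sign was the same, from −0.56 to −0.29, with adjusted p between 0.36 and 0.841. Without Vehicle 2 the difference was −0.29, and the unadjusted p was then 0.0942. Fosl2 (ENSMUSG00000029135) lies on chromosome 5 from 32135801 to 32157842.

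Within the summed FOS family level, which was 11.9 to 29.3 TPM per library, Fosl1 made up 71.9%, 58.9% and 62.5% in SRT1720 1, 2 and 3 and 62.6%, 54.3% and 44.3% in Vehicle 1, 2 and 3. Fosl2 made up 13.8%, 28.3% and 27.6% with SRT1720 and 30.4%, 32.8% and 41.1% with vehicle. The Fosl2 share was lower in every SRT1720 library (23.2% ± 8.2 against 34.8% ± 5.6, exact permutation p = 0.1, the smallest possible), and the Fosl1 shares overlapped (exact permutation p = 0.3). These 2 tests are among 7 shares compared, and none could pass a correction with 3 libraries a group. Lengths matter here. For Fosb, Jun, Junb, Jund, Egr1 and Ier2, the deposited scaling divided by a length that matched the sum of a gene's distinct annotated exons. That sum counts overlapping exons repeatedly, and among these genes it differs from the merged exons only in Fosb and Egr1. The lengths recovered for Fos, Fosl1 and Fosl2 (4152, 1707 and 11716 bases) did not match their sums (3792, 2717 and 11608 bases). With reads per kilobase of merged GENCODE exons instead, Fosl1 made up 51.7% ± 6.4 against 42.0% ± 9.4 and Fosl2 26.8% ± 9.1 against 38.7% ± 4.3. The Fosl2 shares again did not overlap (exact permutation p = 0.1), but on this scale Vehicle 3 held more Fosl2 (43.6%) than Fosl1 (32.6%).

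**Figure D2:**
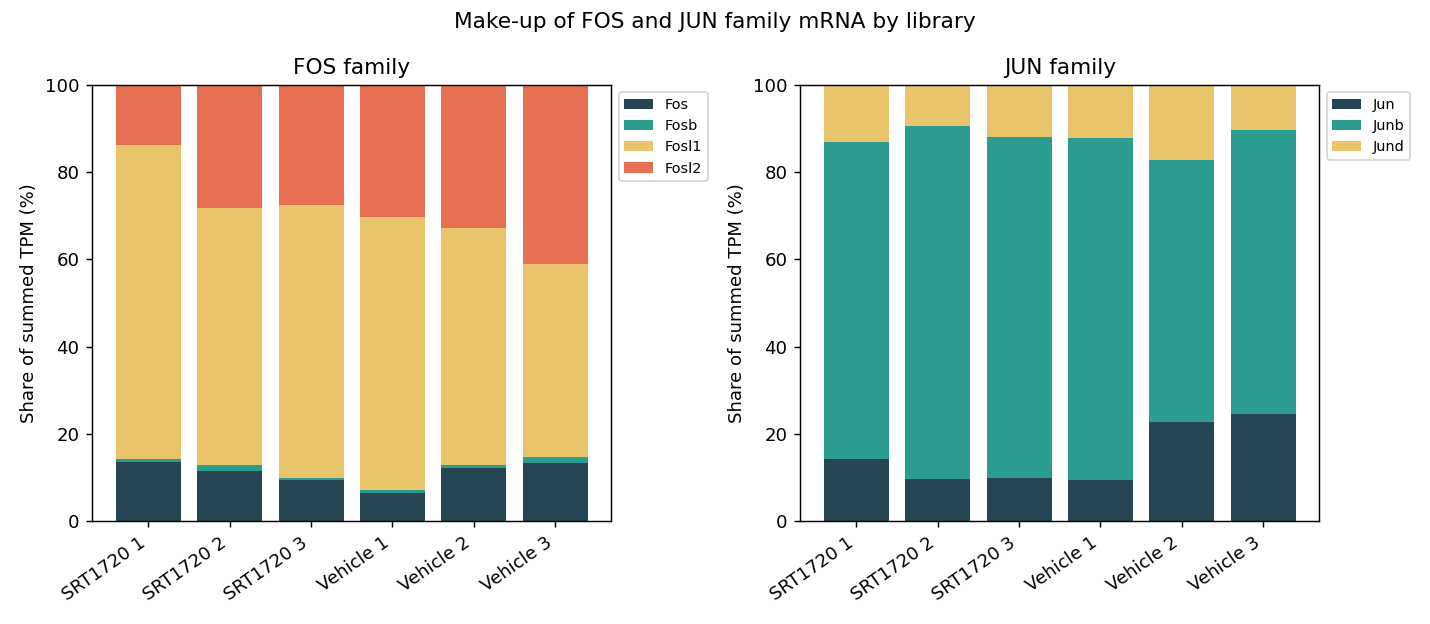
Share of each gene in the summed deposited TPM of the FOS family (left) and the JUN family (right), in percent, for the 6 libraries. On this scale Fosl1 and Junb make up the largest part in every library, the Fosl2 share is 13.8% to 28.3% with SRT1720 and 30.4% to 41.1% with vehicle, and the Jun share is highest in Vehicle 2 and Vehicle 3.

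Jun, which encodes the JUN subunit that drives AP-1 activity most strongly, split the libraries into a high and a low set that did not follow treatment. Jun levels in SRT1720 1, 2 and 3 were 15.2, 4.37 and 4.61 TPM, and those in Vehicle 1, 2 and 3 were 5.16, 15.4 and 14.5 TPM. SRT1720 1, Vehicle 2 and Vehicle 3 lay within 14.5 to 15.4 TPM, and the other 3 libraries within 4.37 to 5.16 TPM, with none between. Read counts behind these values ran from 786 to 2620. The log2 difference was −0.56 (SE 0.55, interval −1.87 to 0.75, adjusted p = 0.738). Its sign was below 0 in all 15 other settings, from −1.08 to −0.11, and it was −0.11 without both SRT1720 3 and Vehicle 3 and −0.83 without both SRT1720 1 and Vehicle 2. Jun (ENSMUSG00000052684), a gene of a single exon, lies on chromosome 4 from 95049034 to 95052222 on the minus strand.

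Junb, which encodes a JUN protein that can restrain JUN at some promoters, was the most abundant of all 10 genes. Its level was 77.7, 36.6 and 36.9 TPM with SRT1720 and 42.9, 40.5 and 38.5 TPM with vehicle, from 4395 to 9669 reads. Apart from SRT1720 1, the remaining 5 libraries lay between 36.6 and 42.9 TPM. The log2 difference of 0.21 (SE 0.31, interval −0.53 to 0.95, adjusted p = 0.839) became −0.14 without SRT1720 1. Junb shares the end of its span with Prdx2 on the opposite strand (8.44 to 10.8 TPM).

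Jund encodes a JUN protein that is usually made steadily rather than in bursts. It was at 13.9, 4.27 and 5.57 TPM with SRT1720 and at 6.65, 11.6 and 6.04 TPM with vehicle. Here too SRT1720 1 and Vehicle 2 were the high libraries. The log2 difference was −0.13 (SE 0.43, interval −1.15 to 0.88, adjusted p = 0.937), and it was 0.17 without SRT1720 2, 0.13 without Vehicle 2 and 0.0093 without SRT1720 3.

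The summed JUN family level was 107, 45.2 and 47.1 TPM in SRT1720 1, 2 and 3 and 54.7, 67.5 and 59.0 TPM in Vehicle 1, 2 and 3 (exact permutation p = 1). Junb made up 59.99% to 80.9% of it in every library. The Jun share was 14.2%, 9.68% and 9.78% with SRT1720 and 9.43%, 22.8% and 24.5% with vehicle, so that Vehicle 1 lay below all SRT1720 libraries and the other Vehicle libraries above them (exact permutation p = 0.4).

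Egr1, a zinc-finger transcription factor and a standard readout of ERK signaling, was at 19.5, 7.15 and 7.56 TPM with SRT1720 and at 8.42, 9.11 and 12.6 TPM with vehicle. SRT1720 2 and 3 lay below all Vehicle libraries and SRT1720 1 above them. The log2 difference was 0.05 (SE 0.38, interval −0.86 to 0.96, adjusted p = 0.974). Leaving out SRT1720 1 gave −0.38 (adjusted p = 0.543), and leaving out Vehicle 2 as well gave −0.44 (adjusted p = 0.541). Median-of-ratios scaling gave −0.0013, so Egr1 has no direction that holds across the settings.

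Ier2 encodes a short-lived nuclear protein. It was at 41.8, 19.0 and 24.1 TPM with SRT1720 and at 15.5, 23.4 and 16.3 TPM with vehicle. Only Vehicle 2 reached into the range of the SRT1720 libraries. The log2 difference of 0.54 (SE 0.32, interval −0.22 to 1.305) had an adjusted p of 0.538 and an exact permutation p of 0.2. It was above 0 in all 15 other settings, from 0.23 to 0.78.

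Dusp1 encodes a nuclear phosphatase that switches off MAP kinases, so it is a brake made by the pathway it stops. SRT1720 1, 2 and 3 held 2.55, 1.02 and 0.657 TPM, and Vehicle 1, 2 and 3 held 0.891, 2.26 and 3.10 TPM, from 186 to 821 reads. The 3 libraries high for Jun, SRT1720 1, Vehicle 2 and Vehicle 3, were also the 3 highest for Dusp1. The log2 difference was −0.36 (SE 0.38, interval −1.27 to 0.54, adjusted p = 0.758), with −0.58 at a pseudocount of 0.1 TPM and 0.11 without both SRT1720 3 and Vehicle 3. The span of Dusp1 (ENSMUSG00000024190) runs on chromosome 17 from 26505590 to 26562128 and holds parts of other genes, among them Ergic1 and the processed pseudogene Gm8225 on the opposite strand.

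**Figure D3:**
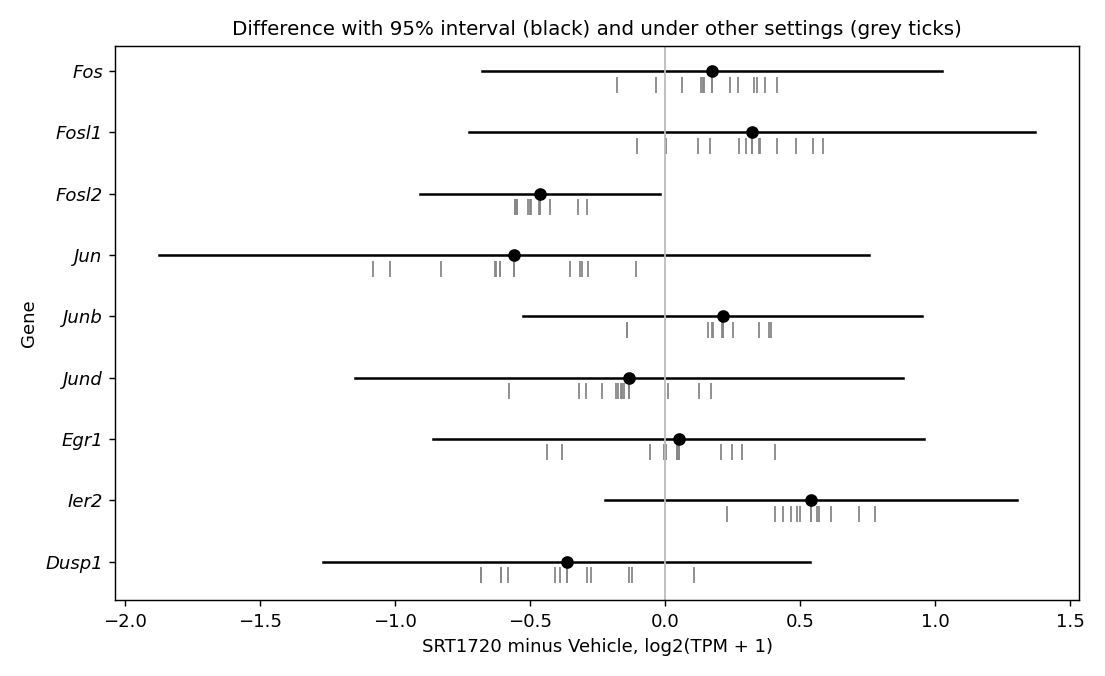
Difference between SRT1720 and Vehicle on the log2(TPM + 1) scale for the 9 tested genes, with limma's estimate and 95% interval in black and the estimates under the other settings as grey ticks. Only the interval of Fosl2 lies below 0, and the ticks of Fos, Fosl1, Junb, Jund, Egr1 and Dusp1 fall on both sides of 0.

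The bases upstream of Fos, Jun and Dusp1 are shown because Jun and Dusp1 shared their 3 high libraries while Fos was high in SRT1720 1 and Vehicle 2 alone. These genes were picked after the values were seen. Jun too had its highest and second highest values in Vehicle 2 and SRT1720 1. So did Jund, whose window was searched but is not printed. Whether the bases have a part in these library patterns was not tested. The bases shown are from RefSeq windows of GRCm38.p6. Windows for 7 of the 10 members were used, and Fosl1, Egr1 and Ier2 were not searched, so nothing is said of their sites. Each window ends before the RefSeq start. That start can differ from the GENCODE spans given above, and the Dusp1 window lies inside the GENCODE span of Dusp1. Each was searched on both strands of the 250 bases before the start for the CArG box bound by SRF, the CREB site TGACGTCA, the AP-1 site TGANTCA and the TATA motif TATAAA. The ATF and JUN type site TGACATCA was added after the windows had been seen. Capitals mark the matches.
Fos, chr12:85473640-85473889, plus strand: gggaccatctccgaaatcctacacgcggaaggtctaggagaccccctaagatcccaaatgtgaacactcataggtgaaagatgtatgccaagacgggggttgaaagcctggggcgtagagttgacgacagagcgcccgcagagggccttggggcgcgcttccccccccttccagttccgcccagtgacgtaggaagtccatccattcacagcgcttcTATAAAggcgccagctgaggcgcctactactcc
Jun, chr4:95052223-95052472, minus strand: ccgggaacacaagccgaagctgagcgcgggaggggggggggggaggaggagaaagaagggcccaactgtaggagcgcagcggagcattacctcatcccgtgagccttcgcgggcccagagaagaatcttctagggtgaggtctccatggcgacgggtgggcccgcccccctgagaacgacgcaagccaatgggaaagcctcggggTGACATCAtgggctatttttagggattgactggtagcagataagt
Dusp1, chr17:26508520-26508722, minus strand: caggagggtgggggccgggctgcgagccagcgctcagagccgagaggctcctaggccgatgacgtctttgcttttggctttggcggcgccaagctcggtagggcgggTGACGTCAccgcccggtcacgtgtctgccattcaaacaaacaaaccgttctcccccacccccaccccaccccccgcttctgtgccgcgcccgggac
In Fos the only match of the listed letters within the 250 bases was TATAAA, 33 to 28 bases before the start. Bases farther upstream were not searched in any gene, so a CArG box of Fos beyond the window would be missed. Altered forms of the CREB site were not searched. The Fos bases hold tgacgtag and the Dusp1 bases tgacgtct, both unmarked, so the marks do not show that Fos lacks a site of this type. Jun held TGACATCA from 45 to 38 bases before its start. Dusp1 held TGACGTCA from 143 to 136 bases before its start, and its printed bases stop where an annotated Dusp1 exon begins. Over 32536 distinct windows of this length, TATAAA was found in 12.3%, TGACATCA in 2.84%, TGACGTCA in 1.56%, TGANTCA in 6.73% and the CArG box in 1.48%. The windows of Fosb, Fosl2, Junb and Jund held none of these letters, which says nothing of sites elsewhere. Those of Fosb and Fosl2 overlap annotated exons of their own genes. The Jund window ends at 70697738, whereas the GENCODE gene starts at 70698949, so the bases just before that start were not searched.

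Genes whose levels ran most like those of a member were ranked by Pearson's r of log2(TPM + 1) over the 6 libraries among 8071 tested protein-coding genes. A high r is what picking the top of so many genes over 6 points gives, so these are descriptions. Fos was followed most closely by Ormdl1, Mal2, Ppif and Cxcl10 (r = 0.99 for each). Mal2, a membrane trafficking protein gene, was at 29.3 and 21.4 TPM in SRT1720 1 and Vehicle 2 and at 5.19 to 9.69 TPM elsewhere. Junb was followed by Zbed3, Nudt22, Nfkbia, Mapk11 and Coq5 (r = 0.98 to 0.99), and Nfkbia, the inhibitor of NF-kB, was at 46.5 TPM in SRT1720 1 and 17.6 to 24.3 TPM in the other libraries. For Jund the first was Cxcl16, for Fosl1 Ube2j2, for Egr1 2610044O15Rik8 and for Ier2 Thumpd1 (r = 0.97 to 0.99). Enpp5 was among the closest 5 of both Jun and Dusp1 (r = 0.98 for each). Fosl2 was followed by Ccnt2 (r = 0.997), a subunit of the transcription elongation kinase, and by Six4, Ubr4, Arl8a and Insr (r = 0.98 to 0.99).

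The other genes around AP-1 were taken from lists chosen for their place in the pathway. Among 34 other immediate early genes, 25 were tested, of which 8 had log2 differences above 0 and 17 below, with a median of −0.23 beside 0.04 over all genes. The median of this list was below 0 in all 15 other settings, from −0.66 to −0.08. None passed the adjusted test, and 2, Ccn1 and Gadd45b, had an unadjusted p under 0.05 and no overlap, both lower. Of all genes tested, 4.55% were lower at that p and 7.75% were lower without overlap. The count without overlap, 2 of 25, is near that background. Ccn1, a matrix protein gene, was at 24.2, 3.51 and 2.36 TPM with SRT1720 and at 29.9, 58.7 and 59.3 TPM with vehicle (log2 difference −2.73, SE 0.75, adjusted p = 0.297). Gadd45b, a stress-response gene, was at 5.81 ± 2.21 against 13.97 ± 5.95 TPM (−1.11, adjusted p = 0.335). Per1, a clock gene, was at 2.87 ± 1.68 against 5.94 ± 2.42 TPM, and Plk2, a kinase gene, at 21.2 ± 7.7 against 37.5 ± 17.3 TPM, with overlapping libraries. As in the members, 11 of these 25 genes (44.0%) had their highest values in SRT1720 1 and Vehicle 2, against 16.2% of all genes tested. This count too was chosen after the values were seen. Atf3, a stress-induced AP-1 partner, was at 26.5 and 16.1 TPM there and at 1.64 to 4.40 TPM in the other 4 libraries.

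All 9 tested genes (of 14 listed) of the other AP-1 dimer partners had log2 differences below 0, with a median of −0.27, beside 4194 of the 9287 genes tested in all. None of the 9 was free of overlap, against 19.9% of all genes. In 7 of them (77.8%) the highest values were those of SRT1720 1 and Vehicle 2, against 16.2% of all genes, a count also chosen after the values were seen. Atf3 and Maff are in this list and among the other immediate early genes, so the counts of the lists are not separate. The median of the dimer partners was −0.78 to −0.06 under the other settings. Maff, which lacks an activation domain, averaged 8.81 ± 8.21 against 13.9 ± 6.1 TPM (adjusted p = 0.6). Jdp2, a repressor of AP-1, was at 20.8, 4.24 and 2.33 TPM against 10.3, 13.2 and 6.201 TPM. Mafa was at 0.890 ± 0.772 against 2.96 ± 2.43 TPM and Atf7 at 1.41 ± 0.20 against 1.65 ± 0.21 TPM, neither past the test.

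Upstream, of 8 tested SRF, ternary complex and CREB activators, 7 were below 0, with a median log2 difference of −0.07 and overlap in every gene. Srf itself averaged 8.499 ± 0.456 against 10.3 ± 2.0 TPM (adjusted p = 0.635), Elk4 at 1.93 ± 0.06 against 2.64 ± 0.90 TPM and Creb1 at 1.62 ± 0.20 against 1.97 ± 0.43 TPM.

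In the MAP kinase relay, 16 of 20 tested genes were above 0, with a median of 0.05, and 5 had groups that did not overlap, against 19.9% of all genes. Mapk3, which encodes the kinase ERK1, was lower in every SRT1720 library, at 12.2, 9.55 and 8.18 TPM against 16.7, 15.4 and 16.0 TPM (log2 difference −0.65, adjusted p = 0.306). Map2k2, an ERK-activating kinase gene, was at 8.14, 8.86 and 7.55 TPM against 7.40, 3.62 and 3.95 TPM (0.67, adjusted p = 0.364). Map2k4, Mapk14 and Rps6ka3 were the other 3 relay genes without overlap, all higher with SRT1720, by 0.35, 0.38 and 0.29.

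Of the genes that ERK signaling switches on, 8 of 10 tested were above 0 (median 0.15), and Etv4, Etv5 and Spred2 did not overlap, where 12.1% of all genes had every SRT1720 value higher. Etv5, an ETS transcription factor, averaged 6.71 ± 0.20 against 4.21 ± 0.87 TPM (0.58, adjusted p = 0.306). Its relative Etv4 was at 5.31 ± 1.94 against 2.76 ± 0.62 TPM (0.72, adjusted p = 0.354). Spred2, an inhibitor of the pathway, was at 5.1995 ± 0.365 against 4.11 ± 0.78 TPM. The other MAP kinase phosphatases had 5 of 6 tested genes below 0 (median −0.22) with overlap in all. Dusp6, the cytoplasmic ERK phosphatase, was at 29.3 ± 3.1 against 24.5 ± 4.8 TPM and Dusp4 at 9.75 ± 5.66 against 16.2 ± 12.9 TPM. Dusp5 was at 12.5 and 11.3 TPM in SRT1720 1 and Vehicle 2 and at 2.46 to 6.48 TPM elsewhere.

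Downstream, the AP-1 target genes divided, with 6 of 13 tested above 0 and 7 below. Their median of −0.28 was above 0 in 3 of 15 other settings, and lay between −0.45 and 0.24. Areg, which encodes the EGFR ligand amphiregulin, was at 39.5, 31.4 and 32.3 TPM with SRT1720 and at 15.8, 17.1 and 13.6 TPM with vehicle. Every SRT1720 value was above every Vehicle value, and Areg had the smallest limma p of the genes in all lists used here (log2 difference 1.10, SE 0.18, limma adjusted p = 0.165, exact permutation p = 0.1). Of the 13 tested targets, 1 was higher without overlap, against 12.1% of all genes tested. At an unadjusted limma p under 0.05, 1 of 13 was higher, against 7.86%, so both counts are near the background. Hbegf, another EGFR ligand gene, was at 18.4 ± 7.8 against 23.4 ± 0.7 TPM and Vegfa at 10.8 ± 4.3 against 17.8 ± 8.1 TPM, both with overlap. Ptgs2, the inducible cyclooxygenase, was at 48.3, 14.0 and 3.19 TPM against 41.5, 27.8 and 19.6 TPM, and Hmox1 at 4.72 ± 1.80 against 8.98 ± 6.42 TPM. The matrix metalloprotease genes Mmp1a, at 0 in all libraries, and Mmp1b, Mmp3, Mmp9, Mmp10 and Mmp13 stayed under the filter.

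**Figure D4:**
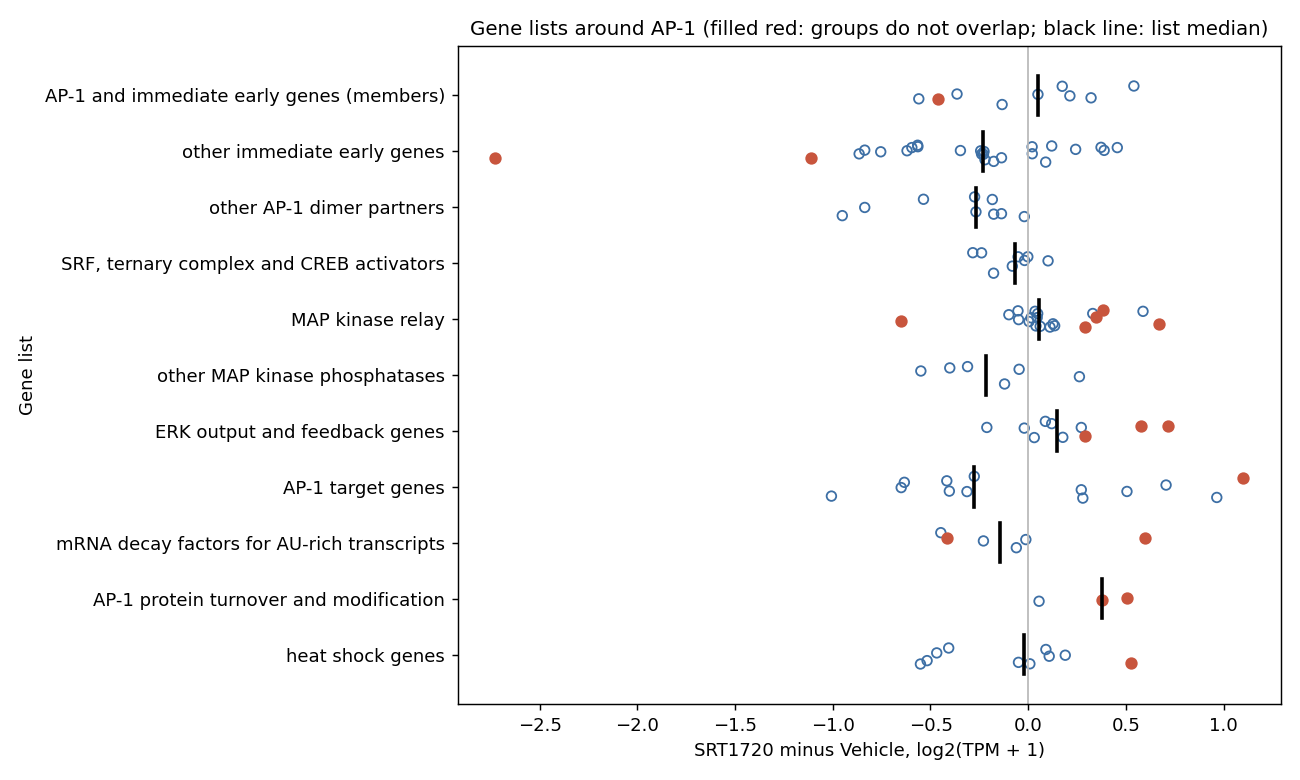
Log2 difference between SRT1720 and Vehicle for every tested gene of the members and of 10 lists around them. Open points are genes whose groups overlap, filled points genes whose groups do not, and black lines are list medians. The points of most lists lie on both sides of 0, and the farthest are Ccn1 at −2.73 and Areg at 1.10.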

How the data were processed

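The authors deposited 1 table of TPM values for the 6 libraries, and that unit is the one the table itself names. Per the submitters' processing notes, STAR 2.6.0 and GRCm38 were used, in roles the notes leave out. For the counter, lengths, annotation and strand setting, nothing was found (not given in the sources used here). Columns sum to between 161231 and 171577. Names and positions came from GENCODE M21 (51719 IDs matched, 193 not). Whole reads were recovered as value times a whole-number length over 1 step per library, within 0.01 reads, for all 27713 IDs above 0. The smallest such length was kept, so low genes may be understated. On simulated data, with the step of each library given, the recovery was right for 99.1% of 3000 genes averaging 20 reads or more. The simulated lengths were shorter than those of Fosb (16525 bases) and Fosl2 (11716 bases), so that share does not cover these genes. Of 13809 IDs averaging 20 reads or more, 32.2% had a length equal to the sum of distinct GENCODE exons and 16.2% one equal to their union.

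limma 3.58.1 in R 4.3.3 (lmFit, eBayes with trend) tested log2(TPM + 1) in the 9287 genes averaging 1 TPM or more, and p-values were adjusted by Benjamini-Hochberg (threshold 0.05). This log2 scale, with a pseudocount of 1 TPM, understates the fold change of low genes. Single values had exact two-sided permutation tests (scipy 1.17.1), which cannot go below 0.1 with 3 libraries against 3. The fit was checked on simulated data. Alternatives were the pseudocount, the filter, the scaling, voom on recovered reads, a replicate block and left-out libraries. The members and lists were chosen with earlier results of these data known. Named were all members and, from each list, up to 4 tested genes with the smallest p and those without overlap. The 5 genes most alike were named for each member, and Atf3, Jdp2, Ptgs2, Dusp5, the matrix metalloproteases and the choice of which alike genes to describe were picked after their values were seen. Some genes that this rule names are not reported here. Figures were drawn with matplotlib 3.10.9.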

Additional observations from a re-analysis of the deposited data

How the results depend on the processing

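Under all 15 other settings, 0 genes and 0 members passed the adjusted test by limma or voom, and unadjusted p under 0.05 was reached by 1153 genes as reported, 498 at a mean of at least 5 TPM, 2028 with no filter on low values, 523 without SRT1720 2 and 682 without both SRT1720 3 and Vehicle 3. Fosl2 reached that p in 7 of its 14 other settings. The signs of Fosl2, Jun and Ier2 were the same in every setting that measured them. Other signs turned, none past the test. Without SRT1720 1 the log2 difference was −0.18 for Fos, −0.11 for Fosl1, −0.14 for Junb and −0.38 for Egr1. Without Vehicle 1 it was −0.03 for Fos and −0.05 for Egr1, and without Vehicle 2 0.13 for Jund and −0.0038 for Egr1. Jund was at 0.17 without SRT1720 2 and 0.0093 without SRT1720 3. Without both SRT1720 1 and Vehicle 2, Junb was at −0.14 and Egr1 at −0.44, and without both SRT1720 3 and Vehicle 3 Dusp1 was at 0.11. Egr1 was at −0.0013 with median-of-ratios scaling. With a single library left out, the other ends of the ranges were 0.41 for Fos, 0.59 for Fosl1, 0.39 for Junb, −0.58 for Jund and 0.28 for Egr1, and Egr1 was at 0.41 without both SRT1720 3 and Vehicle 3. The causes were not tested. Deviations of same-numbered libraries correlated at −0.20 for number 1, −0.26 for number 2 and 0.79 for number 3. Equal replicate numbers thus went with alike deviations only in the libraries numbered 3. No label pairs libraries of other numbers, so no crossed pairing was fitted. With the replicate number as a block, 0 genes and 0 members passed and the median over members stayed at 0.05, with 1133 genes at an unadjusted p under 0.05. Tested members had 186 to 9669 reads per library and Fosb 52 to 179. Flags for single far libraries need groups of 4 or more, so none could be made here.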

Other observations

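Of 3 tested genes whose products act on AP-1 proteins, 2 were higher without overlap, where 12.1% of all genes tested were. Of 6 tested factors that act on AU-rich transcripts, 1 was higher and 1 lower without overlap. Among all genes tested, 19.9% did not overlap in either direction. These short lists were not tested against those shares. Hdac3, a histone deacetylase reported as a corepressor of JUN, was at 5.84, 6.21 and 5.81 TPM with SRT1720 and at 4.39, 4.13 and 4.57 TPM with vehicle (log2 difference 0.38, limma adjusted p = 0.355). Sirt1 was at 1.29, 1.06 and 0.792 TPM against 0.728, 0.971 and 0.474 TPM, under the filter and with overlap. Hnrnpd, which encodes the AU-rich element binding protein AUF1, was higher in every SRT1720 library, at 2.25, 3.66 and 4.58 TPM against 2.03, 1.91 and 1.76 TPM (0.60, adjusted p = 0.355). Zfp36l1, a decay factor of such transcripts, was lower in every SRT1720 library, at 1.52 ± 0.17 against 2.41 ± 0.79 TPM (SD, n = 3, log2 difference −0.42, adjusted p = 0.427). Its relative Zfp36 was at 2.24 ± 0.63 against 2.79 ± 0.58 TPM with overlap.

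Of 10 tested heat shock genes, 0 had their highest and second highest values in SRT1720 1 and Vehicle 2, as Fos did. Among all genes tested, 16.2% did, a count chosen after the members' values were seen. The summed level of the heat shock genes was 262 TPM in SRT1720 1, the lowest of the 6 libraries, and 320 to 394 TPM in the others. What sets these library patterns was not tested. Hspa8, a constitutive chaperone gene, was at 14.1 TPM in SRT1720 1 and at 44.5 to 81.2 TPM elsewhere, and Hspa1b at 15.1 TPM there and 34.5 to 48.6 TPM elsewhere. Hspa1a and Hspa1b were highest in Vehicle 2, at 13.5 and 48.6 TPM. Hspe1 was highest in SRT1720 1, at 47.1 TPM against 40.6 to 44.9 TPM elsewhere. Hspd1, a mitochondrial chaperonin gene, was at 88.8, 125 and 87.6 TPM with SRT1720 and 81.7, 75.4 and 52.2 TPM with vehicle, without overlap (0.52, adjusted p = 0.439). Of the 10 genes, 5 were above 0 and 5 below.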
